A study of Mus musculus with 38 samples.

Results

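The genes described here are 10 genes of the cadherin switch and of epithelial-mesenchymal transition: Cdh1, Cdh2, Epcam, Cldn6, Cldn7, Vim, Snai1, Snai2, Zeb1 and Twist1. They were chosen by name from 23475 genes in the bulk table, and all 10 are also in the single-cell tables. All samples come from 1 mouse embryonic stem cell line, E14. Undifferentiated mESCs grew in 2i/L, a medium with inhibitors of MEK and GSK3 plus LIF that holds cells in the naive pluripotent state. For differentiation the cells were moved to N2B27 basal medium with 0.25 µM retinoic acid (RA) and sampled for up to 96 h. Cells were sorted at 96 h by surface protein, CD24+/PDGFRA- for ectoderm-like cells and PDGFRA+/CD24- for cells like extraembryonic endoderm (XEN-like), with 2 libraries of each and 2 of mESCs. At 48 h the PDGFRA- cells were sorted into 4 gates of rising CD24 (Q1 to Q4). At 72 h they were sorted into 3 gates (T1 to T3), beside 1 gate of PDGFRA+/CD24- cells. Sorted cells were also cultured further in N2B27 with EGF and FGF2, the ectoderm-like cells up to passage 5 and the XEN-like cells as floating aggregates for 3 weeks, with 1 library of each culture. Of the 38 samples, 25 are bulk libraries, 9 are plates of single cells read by SCRB-seq (0 to 96 h) and 4 are sets of single cells read by SMART-seq2 (0 to 48 h). The question for these genes is which of them changed with RA, and in which of the lineages.

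Cadherins are calcium-dependent adhesion proteins that hold neighbouring cells together by binding a cadherin of the same kind on the next cell. In the embryo, E-cadherin (Cdh1) is the cadherin of epithelia and of pluripotent cells, and N-cadherin (Cdh2) replaces it when the neural plate forms and when cells leave an epithelium as mesenchyme. That exchange is the cadherin switch. In a full epithelial-mesenchymal transition, tight junction claudins and Epcam are also lost, the intermediate filament vimentin (Vim) is raised, and the zinc finger repressors Snai1, Snai2 and Zeb1 and the helix-loop-helix factor Twist1 bind E-box sequences and repress Cdh1. XEN cells are the stem cells of the extraembryonic endoderm, and parietal endoderm derived from it is a known site of developmental epithelial-mesenchymal transition.

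Bulk levels are given in CPM, unique molecular identifiers (UMIs, 1 per captured transcript) of a gene per 1000000 UMIs of the library. The 25 libraries held 1063809 to 2459424 UMIs, so that 1 UMI was worth less than 1 CPM, and intervals given for single libraries cover counting error only. Of the conditions, 19 have 1 library and no test. For the groups with 2 libraries the labels do not say whether these came from separate cultures, so the p-values measure only the spread between these libraries, which may be technical. Before any result, the second sorted ectoderm-like library stood apart: its summed XEN markers were 1779 CPM against 485 CPM in the first, beside 12050 and 6665 CPM in the sorted XEN-like libraries. The summed pluripotency markers were 13436 and 18354 CPM in mESCs, 790 and 432 CPM in sorted ectoderm-like cells and 6267 and 4524 CPM in sorted XEN-like cells. Dppa5a made up most of these sums, with means of 13422, 383 and 5150 CPM in that order. Other markers differed in how far they fell: Esrrb means were 73.1, 0.323 and 0.964 CPM, and Klf4 means 69.8, 4.25 and 34.5 CPM. Sums of this list given below are not split by gene, so they do not measure the pluripotency genes evenly. The ectoderm markers summed to 3270 and 2803 CPM in sorted ectoderm-like and 611 and 323 CPM in sorted XEN-like cells, so each sort carried the markers of its label. In bulk samples, fewer cells of a type and less RNA per cell cannot be told apart.

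With RA, Cdh1 fell and Cdh2 rose. In the bulk libraries Cdh1 lay below both mESC libraries from 12 h on. Cdh2 lay above both from 36 h on, with counting intervals clear of theirs from 48 h on. Cdh1 (GRCm38, chr8:106603351-106670246, plus strand) was 74.4 and 91.8 CPM in the mESC libraries. It was 84.6, 63.4 and 60.8 CPM at 6, 12 and 24 h, 30.9 and 32.9 CPM at 36 and 48 h, and 17.4, 20.2, 9.33 and 14.9 CPM at 60, 72, 84 and 96 h. From 12 h on, every library lay below both mESC libraries, and the ratio of 24 h to the summed mESC libraries was 0.731 (95% counting interval 0.591 to 0.899). Cdh2 (chr18:16588877-16809246, minus strand) was at 2.62 and 2.61 CPM in mESCs and stayed at or under 1.99 CPM until 24 h. It then read 5.45 CPM at 36 h, 20.3 at 48 h, 34.8 at 60 h, 44.1 at 72 h, 51.3 at 84 h and 32.3 CPM at 96 h. Every library from 36 h on lay above both mESC libraries. At 36 h this rested on 9 UMIs, with a counting interval of 2.49 to 10.3 CPM that overlaps those of mESCs (up to 5.71 CPM). From 48 h on (15.1 to 26.8 CPM at that time) the intervals did not overlap. Against the summed mESC libraries, Cdh1 at 96 h had a ratio of 0.179 (95% counting interval 0.118 to 0.261) and Cdh2 a ratio of 12.3 (6.59 to 25.1). Among the members with at least 20 UMIs over both sides, 5 of 8 were over 2-fold higher at 96 h and 1 was lower, beside 24.4% and 9.85% of all genes so counted. At 48 h these were 4 higher and 1 lower of 6 (18.4% and 8.91% of genes). At 24 h 2 of 5 were higher, Epcam and Cldn6, and none was lower (9.63% and 7.75%). These times share the mESC libraries.

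**Figure D1:**
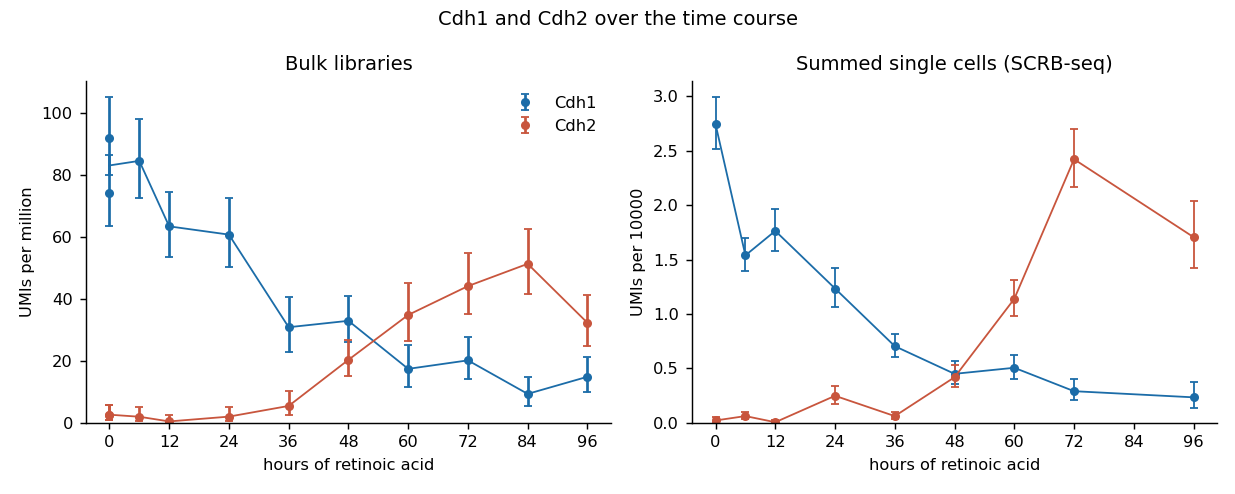
Levels of Cdh1 and Cdh2 against hours of RA (x axis), in bulk libraries (left, CPM) and summed SCRB-seq wells (right, UMIs per 10000), each point 1 library or plate with its 95% counting interval and the lines joining times (the 0 h bulk libraries by their mean). In bulk, Cdh1 starts at 74.4 and 91.8 CPM and is at 14.9 CPM at 96 h, while Cdh2 starts at 2.62 and 2.61 CPM and peaks at 51.3 CPM at 84 h.

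The share of Cdh2 among all Cdh1 and Cdh2 UMIs puts the exchange on 1 scale within each library, which does not depend on depth. Cadherin UMIs here and below are those of Cdh1 and Cdh2 only. Other cadherins are left out, such as Cdh6, with means of 8.01 CPM in sorted XEN-like and 4.21 CPM in sorted ectoderm-like cells. Transcripts were counted by UMI, 1 count per captured molecule, so the share is not scaled by transcript length. It was 3.41% and 2.76% in mESCs, under 3.2% at 6, 12 and 24 h, 15.0% at 36 h, 38.2% at 48 h, 66.7% at 60 h, 68.6% at 72 h, 84.6% at 84 h and 68.5% at 96 h. Most cadherin UMIs were thus Cdh2 from 60 h on. Within the PDGFRA- cells the share followed CD24: from Q1 to Q4 at 48 h it was 21.4%, 17.4%, 40% and 72.97%, and from T1 to T3 at 72 h it was 36.4%, 61.4% and 81.4%. In the PDGFRA+/CD24- gate at 72 h it was 5.88%, 1 of 17 cadherin UMIs. Sorted ectoderm-like cells held 89.2% and 85.1%, and sorted XEN-like cells 15.8% (3 of 19 UMIs) and 0 of 10 UMIs. The Clopper-Pearson interval of that last library reaches 30.8%, so the XEN-like shares are known only coarsely.

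**Figure D2:**
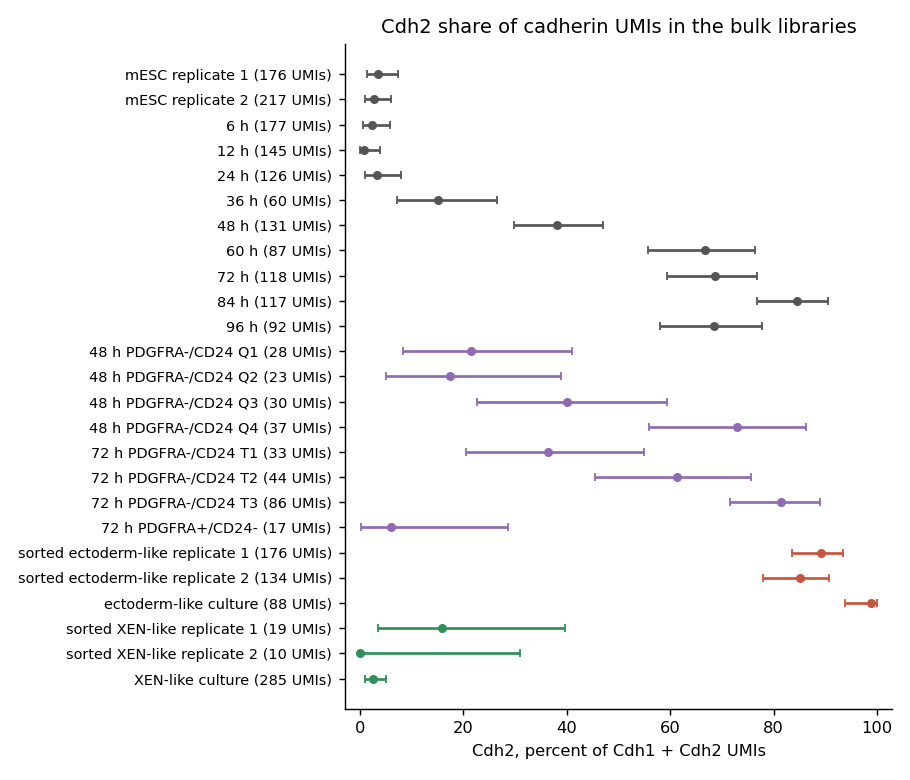
Share of Cdh2 among Cdh1 and Cdh2 UMIs (percent, x axis) in each of the 25 bulk libraries, listed with their cadherin UMIs, with 95% Clopper-Pearson intervals, by time, gate, sorted lineage and culture. The share is 3.41% and 2.76% in mESCs, 89.2% and 85.1% in sorted ectoderm-like cells, and 98.9% and 2.46% in the ectoderm-like and the XEN-like culture.

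The gates gave the same picture by level. In the CD24 gates at 48 h, Cdh2 was 4.01, 2.86, 11.3 and 17.05 CPM from Q1 to Q4 and Cdh1 was 14.7, 13.6, 16.9 and 6.31 CPM. Between Q4 and Q1, Cdh2 had a ratio of 4.25 (1.72 to 12.6) and Cdh1 of 0.429 (0.181 to 0.944), and these were the 2 members past 2-fold of 4 counted, beside 5.58% of genes higher and 4.50% lower. All 4 gates lay below the unsorted 48 h library in both Cdh1 (32.9 CPM) and Cdh2 (20.3 CPM). Their summed pluripotency markers were 4292 to 6664 CPM against 3981 CPM, and their ectoderm markers 885 to 1560 CPM against 2437 CPM. The gated set thus differed from the time course, and its gates are compared only with each other. The part of those markers in the gates' values was not tested. At 72 h, Cdh2 was 9.32, 23.8 and 53.7 CPM from T1 to T3, a ratio of 5.76 (3.10 to 11.7) between T3 and T1, while Cdh1 was 16.3, 15.0 and 12.3 CPM with a ratio of 0.753 (0.367 to 1.51) that spans no change. Of 5 members counted there, 2 were over 2-fold higher in T3 (Cdh2 and Zeb1) and 1 lower (Cldn6), beside 4.34% and 8.11% of genes. In the PDGFRA+ gate Cdh2 was at 0.735 CPM, 1 UMI, a ratio of 0.0251 (0.00063 to 0.143) to the summed PDGFRA- gates. Cdh1 in that gate was 11.8 CPM, a ratio of 0.811 (0.433 to 1.44). Thus Cdh1 was low on both sides of the PDGFRA gate and Cdh2 was high on 1 side. Of 8 members counted between these gates, 2 were over 2-fold higher in PDGFRA+ cells (Cldn6 and Cldn7) and 3 lower (Cdh2, Zeb1 and Twist1), beside 8.85% and 20.3% of genes.

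In the sorted cells, Cdh1 had fallen in both lineages, while Cdh2 was called higher in ectoderm-like cells and lower in XEN-like than in ectoderm-like cells. Cdh1 was 10.6 and 12.9 CPM in sorted ectoderm-like and 8.13 and 9.12 CPM in sorted XEN-like cells, so the groups did not overlap with mESCs. Its log2 fold change against mESCs was -3.14 ± 0.35 (SE) in ectoderm-like cells (edgeR quasi-likelihood test, Benjamini-Hochberg adjusted p = 0.000154 over 8945 genes) and -3.49 ± 0.37 in XEN-like cells (adjusted p = 0.000122). Between the lineages it differed by -0.36 ± 0.41 (adjusted p = 0.634, 95% interval -1.26 to 0.54), so a difference within that interval could not be resolved. Cdh2 was 87.3 and 73.7 CPM in sorted ectoderm-like cells and 1.52 and 0 CPM in sorted XEN-like cells. The lineages did not overlap: the XEN-like libraries held 3 UMIs together against 271. Its log2 fold change was 4.60 ± 0.45 in ectoderm-like cells against mESCs (adjusted p = 5.43e-05) and -6.21 ± 0.56 in XEN-like against ectoderm-like cells (adjusted p = 0.000265). With 3 UMIs that last fit is imprecise, and the summed counts gave a ratio of 0.0121 (0.00248 to 0.0357). Against mESCs, Cdh2 in XEN-like cells was at -1.62 ± 0.78 (adjusted p = 0.164; 3 against 12 UMIs, ratio 0.374, interval 0.0677 to 1.38). Leaving out any 1 of the 6 libraries, the second ectoderm-like one included, kept the calls of Cdh1 against mESCs, of Cdh2 in ectoderm-like cells against mESCs and of Cdh2 between the lineages.

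Across the 9 members that passed the filter on low counts (Snai2 did not), 3 were called higher and 1 lower in sorted ectoderm-like cells against mESCs, beside 9.82% of genes higher and 9.27% lower. In XEN-like cells against mESCs it was again 3 higher and 1 lower, beside 12.3% and 10.5%. Between the lineages 1 member was higher and 3 were lower in XEN-like cells, beside 6.98% and 5.71%. Members that passed the filter only through the group where they are high had to differ. Cdh2 and Twist1 (high in ectoderm-like cells) and Snai1 and Cldn7 (high in XEN-like cells) are such cases, at 2.62 CPM or less in the other groups. The counts, and the p-values of these members, are thus descriptions. The 3 comparisons share libraries pairwise. Cdh1 and Cldn6 were called in the same direction in both lineages. Cdh2 and Twist1 were called higher in ectoderm-like cells against mESCs, and Cldn7 and Snai1 were called higher in XEN-like cells against mESCs. Of these 4, Cdh2, Twist1 and Snai1 were also called in the direct comparison of the lineages.

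**Figure D3:**
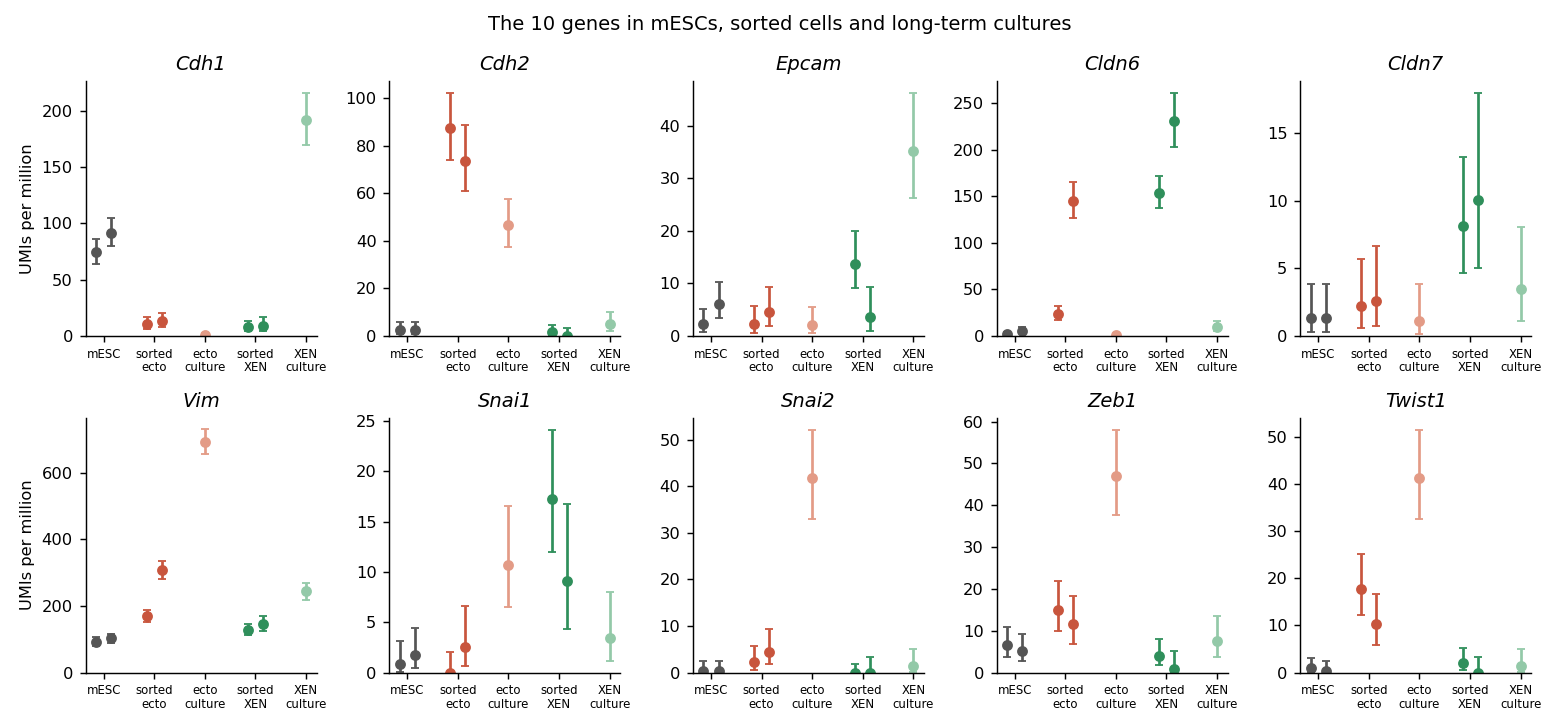
Level of each of the 10 genes (CPM, linear y axes that differ between genes) in the mESC and sorted libraries (n = 2 per group) and in the 2 long-term cultures (n = 1 each), 1 point per library with its 95% counting interval. Cdh1 is lower in both sorted lineages than in mESCs, Cdh2 is at 87.3 and 73.7 CPM in ectoderm-like cells and at 1.52 and 0 CPM in XEN-like cells, and Cldn6 spans 23.9 to 145 CPM within the ectoderm-like pair.

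Of the epithelial members, Cldn6 rose most. Cldn6 (chr17:23679249-23682446), a claudin of tight junctions known from embryonic epithelia, was 1.75 and 5.22 CPM in mESCs. It read 4.84 to 8.37 CPM from 6 to 36 h and then 13.01, 31.8, 49.04, 56.5 and 92.8 CPM from 48 to 96 h. At 96 h its ratio to mESCs was 26.6 (15.9 to 47.5), the largest of the members with 20 UMIs. It rose in both sorts: 154 and 231 CPM in XEN-like cells (log2 fold change 5.56 ± 0.84, edgeR quasi-likelihood test, Benjamini-Hochberg adjusted p = 0.000779) and 23.9 and 145 CPM in ectoderm-like cells (4.28 ± 0.83, adjusted p = 0.00411). The ectoderm-like pair was far apart, and the higher library was the one with more XEN markers. Without that library the ectoderm-like value was 2.38 (adjusted p = 0.0394). Between the lineages Cldn6 differed by 1.28 ± 0.64 (adjusted p = 0.226), and without that library by 3.23 (adjusted p = 0.0114). In the gates Cldn6 lay on the PDGFRA side: 208 CPM in PDGFRA+ cells, 4.75 times the PDGFRA- gates (3.91 to 5.80), and 67.6, 35.3 and 27.6 CPM from T1 to T3, a ratio of 0.409 (0.269 to 0.609).

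Cldn7 and Epcam were at 13.7 CPM or less in every bulk library but the XEN-like culture. Cldn7, an epithelial claudin that binds Epcam, was at 1.31 CPM in both mESC libraries, which is 3 UMIs each. It was 8.13 and 10.0 CPM in sorted XEN-like cells, 2.22 and 2.58 CPM in sorted ectoderm-like cells, and 11.8 CPM in the PDGFRA+ gate against 0 to 2.65 CPM in T1 to T3. The XEN-like libraries lay above all others of the sorts and the mESCs. The log2 fold change against mESCs was 2.51 ± 0.63 in XEN-like cells (edgeR quasi-likelihood test, Benjamini-Hochberg adjusted p = 0.0137). That call was lost without either XEN-like library (adjusted p = 0.0906 and 0.137), without either mESC library (0.0918 and 0.0827), and by DESeq2 (0.0855). Between the lineages it was 1.97 ± 0.60 (adjusted p = 0.0533). Epcam, an adhesion protein of epithelia and of pluripotent cells, was 2.19 and 6.09 CPM in mESCs, 3.60 to 11.5 CPM through the time course, 2.22 and 4.52 CPM in ectoderm-like and 13.7 and 3.65 CPM in XEN-like cells. Its groups overlapped and no comparison called it (adjusted p = 0.628, 0.369 and 0.209 for ectoderm-like and XEN-like cells against mESCs and for the lineages). In bulk, Epcam was not called with Cdh1. Its course in single cells is given with those data.

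The Snail, Zeb and Twist factors bind E-boxes, and the stretches before the start of Epcam, Snai1 and Cldn7 are shown because Epcam, an epithelial member, was not called in any comparison, while Snai1 and Cldn7 were both called higher in XEN-like cells against mESCs. From the RefSeq promoter table (GRCm38.p6), entries of 6 of the 10 genes were used. Promoters of Cdh1, Cdh2, Snai2 and Zeb1 were not examined, which does not show that the reference lacks them. Each line gives the 250 bases before the gene's start on the plus strand, 5′ to 3′, with the E-box letters CACCTG and their reverse complement CAGGTG in capitals. They are chr17:87635729-87635978 for Epcam, chr2:167537945-167538194 for Snai1 and chr11:69964529-69964778 for Cldn7.
Epcam: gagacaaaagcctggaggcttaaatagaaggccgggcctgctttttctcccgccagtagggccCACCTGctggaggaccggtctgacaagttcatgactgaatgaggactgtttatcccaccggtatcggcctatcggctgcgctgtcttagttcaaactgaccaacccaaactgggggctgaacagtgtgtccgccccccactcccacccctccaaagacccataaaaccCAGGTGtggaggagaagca
Snai1: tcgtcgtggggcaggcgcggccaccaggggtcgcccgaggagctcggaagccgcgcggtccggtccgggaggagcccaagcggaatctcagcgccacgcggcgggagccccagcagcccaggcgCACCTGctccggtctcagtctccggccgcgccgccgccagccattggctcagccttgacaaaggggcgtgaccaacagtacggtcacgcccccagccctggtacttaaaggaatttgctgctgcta
Cldn7: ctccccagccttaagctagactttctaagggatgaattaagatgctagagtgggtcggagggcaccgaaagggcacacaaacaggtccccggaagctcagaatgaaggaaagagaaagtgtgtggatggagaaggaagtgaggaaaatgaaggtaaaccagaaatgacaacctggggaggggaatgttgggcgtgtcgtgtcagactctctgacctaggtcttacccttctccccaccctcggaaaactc
Both strands were searched. The Epcam stretch holds 2 matches, beginning 187 and 19 bases before the start, the Snai1 stretch 1, beginning 126 bases before it, and the Cldn7 stretch none. A second Cldn7 promoter in the table, chr11:69965171-69965420, lies within the gene and holds 2 matches, beginning 97 and 57 bases before its start. Of the other genes searched, the Cldn6 window holds 1 match and the Twist1 and Vim windows none. A link between matches and calls was not tested. Of 32851 promoter windows of 250 bases in the table, 17.2% hold at least 1 match. A match is a description of the letters, and none of the assays measured binding.

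Vim, the intermediate filament of mesenchymal cells that mESCs also express, rose late in the bulk course. It was 92.7 and 102.7 CPM in mESCs, 66.3 to 89.97 CPM from 6 to 36 h, 109 to 142 CPM from 48 to 72 h, and 242 and 252 CPM at 84 and 96 h. The last 2 times were the highest of the course, with a ratio of 2.57 (2.26 to 2.93) at 96 h. In the sorts it was 169 and 307 CPM in ectoderm-like and 129 and 147 CPM in XEN-like cells, all above mESCs when scaled to library totals. The TMM scaling factors of 0.844 for mESC replicate 2 and 1.06 for XEN-like replicate 1 bring these libraries to about the same level. The changes did not pass the test: the log2 fold change was 0.98 ± 0.33 in ectoderm-like cells (edgeR quasi-likelihood test, Benjamini-Hochberg adjusted p = 0.0592) and 0.29 in XEN-like cells (adjusted p = 0.561), and between the lineages it was -0.69 (adjusted p = 0.209). The second ectoderm-like library carried most of the first value, which was 1.42 without the first library (adjusted p = 0.0203) and 0.42 without the second (adjusted p = 0.478). The CD24 gates held 113 to 144 CPM at 48 h and 126 to 139 CPM at 72 h, and PDGFRA+ cells 148 CPM, so the gates differed little.

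The transcription factors of the list were low, and their levels split by lineage. Snai1 and Twist1 passed the filter only through the lineage where they were high, so their p-values are descriptions. Snai1 (chr2:167538195-167542814) was at 0.875 and 1.74 CPM in mESCs, at or under 1.80 CPM through 60 h, and at 4.90, 5.19 and 9.74 CPM at 72, 84 and 96 h. It was 17.3 and 9.12 CPM in sorted XEN-like cells and 0 and 2.58 CPM in sorted ectoderm-like cells, and the lineages did not overlap. The log2 fold change was 3.09 ± 0.79 in XEN-like cells against mESCs (edgeR quasi-likelihood test, Benjamini-Hochberg adjusted p = 0.0151) and 3.49 ± 0.85 between the lineages (adjusted p = 0.0200). In summed counts, 44 UMIs stood against 4 between the lineages, a ratio of 12.0 (4.37 to 46.02). The call against mESCs was lost without XEN-like replicate 1 (adjusted p = 0.206) and without mESC replicate 1 (0.0727). The call between lineages was lost without XEN-like replicate 1 (0.222), XEN-like replicate 2 (0.0517) or ectoderm-like replicate 1 (0.177). Snai1, known as a repressor of Cdh1, was thus higher in the lineage where Cdh2 was at or near 0.

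Twist1 and Zeb1 lay on the other side. Twist1 (chr12:33957671-33959829) was at 0.875 and 0.435 CPM in mESCs, 5.404, 12.0, 10.4 and 5.13 CPM from 60 to 96 h, 17.8 and 10.3 CPM in sorted ectoderm-like cells and 2.03 and 0 CPM in sorted XEN-like cells. The ectoderm-like libraries lay above all the others of mESCs and XEN-like cells. The log2 fold change was 3.99 ± 0.78 in ectoderm-like cells against mESCs (edgeR quasi-likelihood test, Benjamini-Hochberg adjusted p = 0.00406; 48 against 3 UMIs, ratio 21.9, interval 7.06 to 110) and -3.33 ± 0.76 between the lineages (adjusted p = 0.0148). The first call was lost without ectoderm-like replicate 1 (adjusted p = 0.0765). The second was lost without XEN-like replicate 2 (0.0775), ectoderm-like replicate 1 (0.229) or ectoderm-like replicate 2 (0.0540), and by DESeq2 (0.0557). Zeb1 (chr18:5591860-5775467) was 6.56 and 5.22 CPM in mESCs, 11.3 to 14.5 CPM from 48 to 96 h, 15.0 and 11.6 CPM in ectoderm-like cells and 4.06 and 0.912 CPM in XEN-like cells. Against mESCs neither lineage was called (0.86, adjusted p = 0.256, and -1.28, adjusted p = 0.163). Between them Zeb1 was lower in XEN-like cells by -2.14 ± 0.58 (adjusted p = 0.0334), and this call was lost without any 1 of the sorted libraries (0.0620, 0.157, 0.237 and 0.107) and by DESeq2 (0.139). Snai2, a marker of neural crest, held 0 to 2.44 CPM through the time course, 2.22 and 4.52 CPM in ectoderm-like cells and 0 CPM in both XEN-like libraries. It failed the filter and was not tested.

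The gates repeated this split for Twist1 and Zeb1. Twist1 was 1.55, 12.4 and 7.68 CPM from T1 to T3 and 0.735 CPM, 1 UMI, in PDGFRA+ cells, a ratio of 0.105 to the PDGFRA- gates. Zeb1 was 5.44, 9.70 and 13.8 CPM from T1 to T3 and 2.94 CPM in PDGFRA+ cells, a ratio of 0.304. Both were lowest in PDGFRA+ cells. Snai1 was 3.11, 0.882 and 3.07 CPM from T1 to T3 and 6.62 CPM in PDGFRA+ cells, with few UMIs in each. At 48 h Snai1 held 0 to 1.89 CPM and Zeb1 4.01 to 9.28 CPM, without order along CD24.

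Other genes of these pathways were taken from lists of epithelial junction genes, epithelial regulators, mesenchymal genes and regulators of the transition. As with the members, genes that passed the filter only through the group where they are high had to differ. Zeb2 and Sox9 are such cases, with means of 0 and 0.436 CPM in mESCs and 18.6 and 12.1 CPM in ectoderm-like cells. The counts and medians of the lists are thus descriptions. In ectoderm-like cells against mESCs, 9.82% of all genes tested were called higher and 9.27% lower. The regulators of the epithelial state fell: 6 of 8 tested were lower and none was higher (median log2 fold change -3.09, against 0.05 over all genes). They included Grhl3 (-4.83 ± 0.77, edgeR quasi-likelihood test, Benjamini-Hochberg adjusted p = 0.00135), a grainyhead factor of surface epithelium, Ap1m2 (-3.44), a sorting adaptor of epithelial cells, and Elf3 (-3.41), an epithelial ETS factor. Of 10 tested regulators of the transition, 6 were higher and 1 lower (median 1.70), with Sox9 at 4.30 ± 0.70 (adjusted p = 0.00151). Zeb2, the close relative of Zeb1, was at 0 UMIs in mESCs and 64 in ectoderm-like cells, at least 29.2-fold higher against a floor of 3 UMIs over the group. Junction genes went both ways, 3 higher and 4 lower of 15 (median 0.18): the desmosomal Dsc2 (3.93) rose and Jup, plakoglobin (-3.27), fell. Of 14 mesenchymal genes 4 were higher and 1 lower (median 0.72), led by Tagln, the actin-binding transgelin (6.18). Its mean was 141 ± 131 CPM (SD, n = 2), so the ectoderm-like libraries were far apart in it.

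In XEN-like cells against mESCs these lists moved less to 1 side. Of all genes tested, 12.3% were called higher there and 10.5% lower. Of 8 epithelial regulators 1 was higher (Prss8, an epithelial protease, 3.74 ± 0.60, edgeR quasi-likelihood test, Benjamini-Hochberg adjusted p = 0.00113) and 2 lower (median -0.11, against -0.06 over all genes). Of 15 junction genes 4 were higher, led by Dsc2 (4.13) and Inadl (4.04), and 4 lower, led by Cldn4 (-5.51). Of 14 mesenchymal genes 2 were higher, among them the integrin Itgb1 (2.55 ± 0.30), and 3 lower, led by fibronectin, Fn1 (-3.14). Of 10 regulators of the transition 2 were higher and 1 was lower (Tcf4, -2.30). In the direct comparison, 6.98% of all genes tested were called higher in XEN-like cells and 5.71% lower. There, 4 of 8 epithelial regulators were higher in XEN-like cells and none was lower, among them Ap1m2 (4.40 ± 0.76, adjusted p = 0.00427), Elf3 (3.71) and Klf5 (2.72). Ap1m2 was 25.1 ± 3.28 CPM (SD, n = 2) in XEN-like and 1.29 ± 1.83 CPM in ectoderm-like cells. Of 10 regulators of the transition 6 were lower, led by Zeb2 (-4.59) and Tgfb2 (-3.27), and 1 was higher, Klf8 (3.15). Of 14 mesenchymal genes 5 were lower, led by Tagln (-4.25), and none was higher. Of 15 junction genes 1 was lower, the desmosomal Pkp2 (-2.77). Of the neural crest markers 2 of 9 could be tested, Ets1 and Msx2. Against mESCs, where Ets1 was at 0 CPM, both were called higher in XEN-like cells (7.11 and 2.94). In ectoderm-like cells Ets1 was called higher (5.74) and Msx2 was not (1.10), and neither was called between the lineages. No mesoderm marker of 5 could be tested, with the mesoderm list summing to at most 5.5 CPM in any library.

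The long-term cultures moved apart from each other and from the sorted cells they came from. With 1 library of each culture there is no test, and age, medium and passage cannot be told apart. The genes of other lists named for the cultures were chosen after their values were seen. In the ectoderm-like culture at passage 5, Cdh1 was at 0.535 CPM, 1 UMI against 39 in the summed sorted libraries, a ratio of 0.0459 (0.00113 to 0.272). Cdh2 remained at 46.6 CPM, 0.575 times the sorted cells (0.446 to 0.735), and made up 98.9% of the cadherin UMIs. The repressors Snai2, Zeb1 and Twist1 were each at their highest level of the 25 libraries. Snai2 was 41.8 CPM, 12.7 times the sorted cells (6.72 to 26.5). Zeb1 was 47.1 CPM (3.50 times, 2.42 to 5.14), Twist1 41.2 CPM (2.87 times, 1.98 to 4.21) and Snai1 10.7 CPM (8.96 times, 3.00 to 36.0). Vim reached 693 CPM, 2.98 times the sorted cells (2.72 to 3.26) and more than in any other library. Cldn6 fell to 1 UMI against 268. Of 8 members counted, 5 were over 2-fold higher and 2 lower, beside 17.4% and 14.9% of genes, and the same numbers were obtained against either sorted library alone.

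The XEN-like culture went the other way for Cdh1. Cdh1 was at 192 CPM, above both mESC libraries, and 22.6 times the sorted XEN-like cells (15.1 to 35.2; 278 against 26 UMIs). Cdh2 was at 4.83 CPM, 7 UMIs, and made up 2.46% of the cadherin UMIs, close to the 3.41% and 2.76% of mESCs. Epcam was 35.2 CPM, its highest in the 25 libraries and 3.48 times the sorted cells (2.18 to 5.63). Both adhesion genes of the epithelial state were thus higher after 3 weeks of culture. In the same library the ectoderm markers summed to 1552 CPM, against 611 and 323 CPM in the sorted XEN-like libraries, the pluripotency markers to 718 CPM, against 6267 and 4524 CPM, and the XEN markers to 10098 CPM. The part of these in the change of Cdh1 and Epcam was not tested. Cldn6, in contrast, was 9.66 CPM, 0.0533 times the sorted cells (0.0289 to 0.0901), and Cldn7 was 3.45 CPM (0.392 times, 0.118 to 1.03). Snai1 was 3.45 CPM (0.240 times, 0.0744 to 0.605), and Vim was 244 CPM (1.80 times, 1.56 to 2.08). Of 7 members counted, 3 were over 2-fold higher and 3 lower, beside 24.2% and 17.9% of genes. Against the first sorted library alone 5 members were past 2-fold, and against the second alone 3 were, with fewer members counted.

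**Figure D4:**
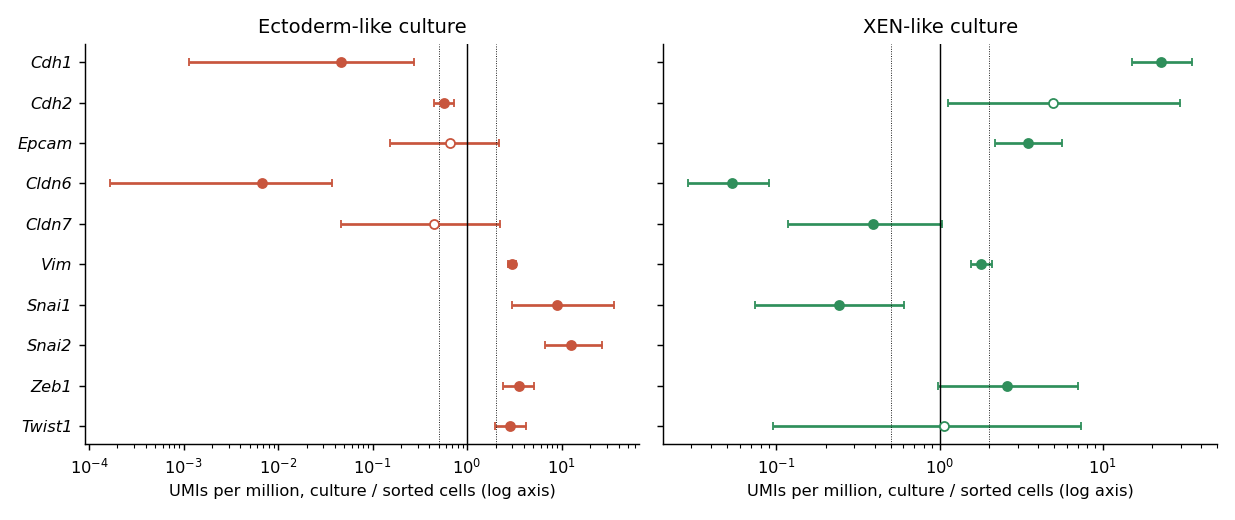
Ratio of each member's level in the long-term culture to the summed sorted cells of the same lineage (log x axes of different range), with 95% counting intervals, a solid line at 1, dotted lines at 2-fold and open points for members with under 20 UMIs over both sides. Snai2 (12.7) and Snai1 (8.96) lie above 1 and Cdh1 (0.0459) below it for the ectoderm-like culture, while Cdh1 (22.6) and Epcam (3.48) lie above 1 and Cldn6 (0.0533) below it for the XEN-like culture.

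The other lists were also counted in the cultures. Of all genes so counted, 17.4% were over 2-fold higher and 14.9% lower in the ectoderm-like culture. In the XEN-like culture these shares were 24.2% and 17.9%. In the ectoderm-like culture 23 of 26 mesenchymal genes counted were over 2-fold higher and 1 was lower, and their summed level was 27504 CPM against 1520 and 1896 CPM in the sorted cells. Col1a1, a fibrillar collagen, held 946 UMIs against 2 in the sorted cells, and Tnc, the matrix protein tenascin C, 366 against 2. Prrx1, a factor of limb and craniofacial mesenchyme, held 100 UMIs against 0, at least 59.7-fold higher. All 3 epithelial regulators that could be counted were lower, with a sum of 10.7 CPM against 75.6 and 98.2 CPM, and of 13 junction genes 6 were lower, F11r among them (ratio 0.120), and 1 was higher. In the XEN-like culture 14 of 18 junction genes counted were over 2-fold higher and none was lower, and their sum was 1574 CPM against 578 and 375 CPM. Pkp2 and Dsp, of desmosomes, had ratios of 31.7 and 19.9, and Ocln, occludin of tight junctions, 18.9. Of 15 mesenchymal genes 4 were higher and 4 lower. The neural crest markers summed to 49.8 CPM in the ectoderm-like culture, against 42.2 and 23.3 CPM in the sorted cells, with 2 of 4 counted higher and 2 lower. In that culture the XEN markers summed to 2235 CPM, against 485 and 1779 CPM in the sorted cells, with 1 of 11 over 2-fold higher and 5 lower. Their part in the values of the culture was not tested.

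SCRB-seq counts UMIs in single sorted wells. Of 3456 wells on 9 plates, 2448 with more than 2000 UMIs were kept, 137 to 335 a time, with medians of 3559 to 5069 UMIs, and the 384 well names are the same on every plate. Doublets were not called, and wells of 1 plate are not replicates. Over all kept wells, Cdh1 fell from 2.74 UMIs per 10000 at 0 h to 1.54, 1.76, 1.23, 0.704, 0.450, 0.506, 0.290 and 0.234 at 6, 12, 24, 36, 48, 60, 72 and 96 h. Cdh2 was at 0.0212 at 0 h, 0.0617 at 6 h, 0.00522 at 12 h, 0.248 at 24 h and 0.0614 at 36 h, then 0.419, 1.14, 2.42 and 1.71 from 48 to 96 h. The Cdh2 share of cadherin UMIs was 0.768% at 0 h, 48.2% at 48 h, 69.3% at 60 h, 89.3% at 72 h and 87.9% at 96 h. At 24 and 36 h it was 16.7% (95% interval 12.1 to 22.2) and 8.02% (4.56 to 12.9), where bulk had 3.17% (0.872 to 7.93) and 15% (7.10 to 26.6). The intervals at 24 h did not overlap. At 72 and 96 h the share was above the 68.6% and 68.5% in bulk. Both assays had most cadherin UMIs from Cdh2 from 60 h on. The plate at 96 h was the smallest. Thinned to 2000 UMIs a well, Cdh1 was seen in 35.1% of wells at 0 h and 3.65% at 96 h, and Cdh2 in 0.355% and 24.8%. Without thinning, Cdh1 was seen in 59.9% of wells at 0 h. Wells with UMIs of both cadherins were few, 0 to 26 a time, with the most at 60 h, where 19 wells held Cdh1 alone and 63 held Cdh2 alone. At 60 h 165 of 273 wells gave a UMI of neither, so at this depth a well without a UMI is not shown to lack the transcript.

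Epcam was lower in the later plates and Vim was highest in the last. Epcam was 0.387 per 10000 UMIs (95% counting interval 0.304 to 0.487) at 0 h, 0.436 at 6 h, 0.193 at 12 h, 0.679 (0.555 to 0.823) at 24 h, 0.450 at 36 h, 0.231 at 48 h, 0.232 at 60 h, 0.107 (0.0585 to 0.179) at 72 h and 0.165 at 96 h. The plates from 72 h on lay below the intervals of 0 and 24 h. Vim was 1.77 (1.58 to 1.97) at 0 h, 3.05 at 6 h, 2.74 at 12 h, 3.73 at 24 h, 2.81 at 36 h, 2.02 at 48 h, 3.50 at 60 h, 3.22 at 72 h and 6.44 (5.87 to 7.05) at 96 h. In bulk, Vim at 24 h was 0.678 times mESCs (0.554 to 0.824), so the 2 assays differed in direction at that time. With 1 plate a time, differences between plates and between times cannot be told apart.

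To follow lineage within a plate, wells were ordered by the summed XEN markers minus the summed ectoderm markers, which hold no member, and cut into terciles. The cut is a range of a score, not a cell type. At 96 h the terciles held 46, 46 and 45 wells with medians of 3803, 3808 and 4436 UMIs, and the XEN markers in them were 32.3, 121 and 222 per 10000 UMIs. Cdh2 was 2.78 per 10000 UMIs (95% counting interval 2.10 to 3.61) at the ectoderm end, 2.12 in the middle and 0.488 (0.260 to 0.834) at the XEN end. Twist1 was 0.944, 0.424 and 0.0375. Both were highest at the ectoderm end. Cldn6 ran the other way at 0.0994, 0.424 and 0.901, and Snai1 at 0.0497, 0.232 and 0.751. The ends' counting intervals did not overlap for Cdh2, Twist1, Cldn6 or Snai1. Cdh1 was 0 UMIs at the ectoderm end (which allows up to 0.183 per 10000 UMIs), 0.579 in the middle and 0.0751 at the XEN end. Vim was 5.57, 8.18 and 5.405, highest in the middle. At 72 h Cdh2 was 2.59, 3.13 and 1.30 and Cldn6 0.0455, 0.183 and 0.502, so the ends differed in the direction seen at 96 h. At 60 h Cdh2 was 1.26, 1.17 and 1.00 with overlapping intervals, and with the wells cut at the median score it was 1.07 at the ectoderm end and 1.19 at the XEN end, the other way round. At 48 h Cdh2 was 0.519, 0.508 and 0.178, and Cldn6 was 0.166, 0.179 and 0.0668, with overlapping intervals and its lowest value at the XEN end. The ectoderm and XEN ends at 48 h differed mainly in ectoderm markers, at 27.01 and 9.397 per 10000 UMIs. Their XEN markers were 2.699 and 7.35, both below the 32.3 of the ectoderm end at 96 h. The XEN end at 48 h thus held mainly wells low in ectoderm markers, and its values are not read as levels of XEN-like cells.

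**Figure D5:**
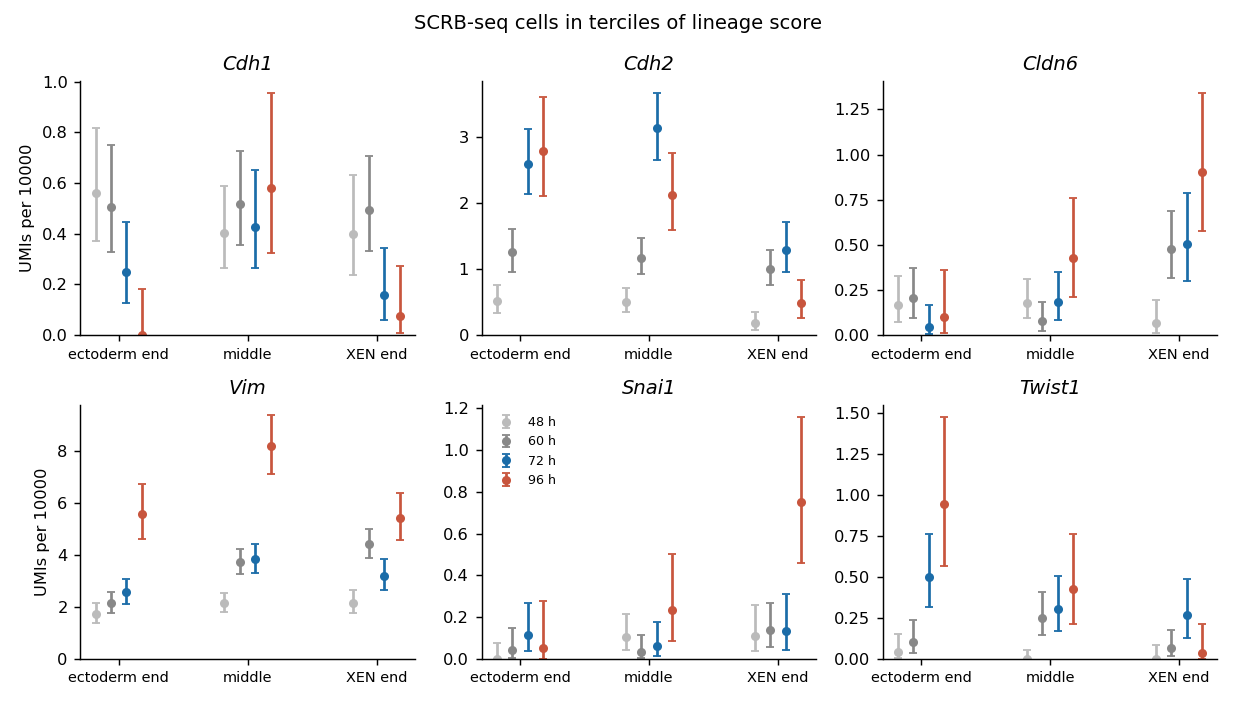
UMIs per 10000 of 6 members (y axes that differ between genes) in the terciles of the lineage score (ectoderm end, middle, XEN end) of SCRB-seq wells at 48, 60, 72 and 96 h, with 95% counting intervals. At 96 h Cdh2 runs from 2.78 to 0.488 and Snai1 from 0.0497 to 0.751 between the ectoderm and the XEN end.

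SMART-seq2 reads whole transcripts and gave RPKM, reads per kilobase of transcript and 1000000 reads, here scaled to 1 common total per cell. It covers 0 to 48 h with 82, 86, 89 and 82 cells, all of them past a floor on reads set by the study, and the tables give no depth for single cells. Mean Cdh1 was 100, 98.8, 64.1 and 37.98 RPKM at 0, 12, 24 and 48 h, and the share of cells above 1 RPKM was 100%, 100%, 96.6% and 73.2%. Cdh1 was still detected in most cells at 48 h. Mean Cdh2 was 12.7, 5.63, 15.0 and 26.3 RPKM, above 1 RPKM in 39.02%, 13.95%, 28.1% and 58.5% of cells. At 0 h that was 32 of 82 cells, whereas SCRB-seq had shown a Cdh2 UMI in 4 of 282 wells. Cells with both cadherins numbered 32, 12, 25 and 36, and cells with Cdh2 alone appeared only at 48 h among the times measured, 12 of 82. Epcam was 60.7, 70.4, 53.4 and 41.8 RPKM, above 1 RPKM in 84.1%, 80.2%, 84.3% and 69.5% of cells, and Vim 300.05, 192, 177 and 171 RPKM. Vim at 24 h was thus below its 0 h level, as in bulk and unlike in SCRB-seq. Cldn6 rose from 3.28 to 29.7 RPKM, and Twist1 was above 1 RPKM in 0%, 2.33%, 3.37% and 10.98% of cells. At 48 h the 29 cells with the highest Cd24a had a mean of 49.2 RPKM of Cdh2 (above 1 RPKM in 23), the 10 with the highest Pdgfra 17.97 RPKM (in 7), and the other 43 cells 12.9 RPKM (in 18). Mean Vim was 384 RPKM in the Pdgfra cells against 181 and 115 RPKM, and the medians were closer, at 172, 127 and 104 RPKM. Mean Snai1 was 7.96 RPKM in the Pdgfra cells and 12.7 RPKM in the Cd24a cells, and mean Twist1 was 11.8 and 7.14 RPKM, the reverse of the order in the sorted cells at 96 h. Both were above 1 RPKM in 2 of the 10 Pdgfra cells and in few of the 29 Cd24a cells (6 for Snai1 and 4 for Twist1). The Pdgfra cells are not like the PDGFRA+/CD24- sort, since 8 of the 10 had Cd24a above 1 RPKM (median 36.6 RPKM). Each of these classes ranges from 0 upward in Cdh2, and no test was made of cells of 1 sample.

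The genes whose bulk pattern was most like that of 4 of the members were named by the Pearson correlation of log2(CPM + 1) over the 25 libraries, among 6405 genes with a mean of at least 10 CPM. The libraries share a cell line and a time course, so this is a description. For Cdh1 they were Cox5a (0.880), Gsta4 (0.875), Tmem38b (0.871), Tfcp2l1 (0.835) and 1110008L16Rik (0.820). Tfcp2l1 is a factor of naive pluripotency. For Cdh2 they were Zfp266 (0.921), Bcl2l11 (0.920), Ube2e3 (0.912), Ptn (0.911) and Crabp1 (0.910), of which Crabp1 is a retinoic acid-binding protein and Ptn a heparin-binding growth factor. For Vim they were Eci2 (0.873), Thbs1 (0.870), Tmem176a (0.866), B2m (0.854) and the smooth muscle actin Acta2 (0.848). For Epcam the values were lower, Nme7 at 0.717, Gsr at 0.708, Alas1 at 0.693, Spint2 at 0.677 and Sprr2a2 at 0.671, and Spint2 is an epithelial protease inhibitor.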

How the data were processed

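Bulk and SCRB-seq values are UMI counts per gene, as deposited by the authors, who mapped reads with BWA 0.7.4 (mm10 and the other tools stand in the submitters' processing notes). SMART-seq2 values are RPKM, as deposited by the authors after TopHat and Cuffnorm. Of 23481 bulk rows, 2 with a value given as text and those of 2 repeated names were left out. The members and lists were chosen with earlier results of these data known.

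The 6 replicated libraries (mESCs and both sorts) were fitted together with edgeR 4.0.16 in R 4.3.3: TMM scaling, filterByExpr, quasi-likelihood test, Benjamini-Hochberg adjustment over 8945 genes, threshold 0.05, with 3 residual degrees of freedom and a common biological coefficient of variation of 0.247. Standard errors are the log2 fold change divided by the square root of F. Other conditions have 1 library, and give CPM with exact Poisson intervals and ratios of UMI counts with exact conditional intervals at 95% confidence, for genes with at least 20 UMIs over both sides where members are counted. Named genes outside the members are up to 4 a direction with the largest change among those past the threshold, and the 5 nearest in pattern to Cdh1, Cdh2, Epcam and Vim. Each SMART-seq2 cell was brought to one total, the median of mESCs. SCRB-seq wells had more than 2000 UMIs, and each gene was thinned separately. In simulated counts with 200 genes changed 4-fold, 90% were recovered in ectoderm-like cells against mESCs (8503 genes), 89.5% in XEN-like cells against mESCs (8461) and 89.5% between the lineages (8475). False calls numbered 6, 8 and 4. All genes had the same simulated spread, and the changed ones averaged more than 20 UMIs a library. The recovery thus does not cover members with fewer UMIs, such as Snai1, Twist1, Cldn7, Epcam and Zeb1. DESeq2 1.42.0, other scalings, filters, UMI limits and leaving out each library were the alternatives. Positions are GENCODE genes of GRCm38, and promoters are of RefSeq.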

Additional observations from a re-analysis of the deposited data

Results flagged for a closer look

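Members whose change from mESCs went opposite ways in the sorted lineages, and which passed the threshold between the lineages, are Cdh2, Snai1 and Zeb1. Epcam also went opposite ways (-0.63 and 0.91), without passing it (1.54, adjusted p = 0.209). Cdh2 was at 4.60 (log2) in the first lineage, ectoderm-like, and at -1.62 in the other, and the lineages differed by -6.21 (edgeR quasi-likelihood test, Benjamini-Hochberg adjusted p = 0.000265). Snai1 was at -0.40 and 3.09, a difference of 3.49 (adjusted p = 0.0200), and the ectoderm-like libraries held 0 and 4 of its UMIs. Zeb1 was at 0.86 and -1.28, a difference of -2.14 (adjusted p = 0.0334). Against mESCs, the rise of Cdh2 in the ectoderm-like sort and that of Snai1 in the XEN-like sort passed the threshold, and the other 4 values did not. Cdh2 and Snai1 passed the low-count filter only through the group where they are high, so their p-values are descriptions. No cause was tested.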

How the results depend on the processing

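Over all members and comparisons, 284 values under the alternatives kept their direction and side of the threshold, 20 were no longer past it, 8 were newly past it and 6 changed direction. Cdh1 and Cldn6 against mESCs and Cdh2 in ectoderm-like cells, against mESCs and against XEN-like cells, passed in every fit. The number of called members was 4 in each comparison. Without each replicate in turn it was 4 to 4 in ectoderm-like cells, 2 to 4 in XEN-like cells and 1 to 4 between the lineages, where DESeq2 called 2. Changed directions were Epcam in ectoderm-like cells (0.30 without mESC replicate 2, range -1.24 to 0.30), Snai1 there (0.72 without ectoderm-like replicate 1, 0.17 without mESC replicate 2, range -4.51 to 0.72), Epcam and Twist1 in XEN-like cells (-0.25 and -3.50 without XEN-like replicate 1, ranges -0.25 to 1.84 and -3.50 to 1.25) and Vim in XEN-like cells (-0.045 with the replicate block). The cause was not tested. With the replicate number as a block, 4, 4 and 5 members were called (1688, 1922 and 1338 genes of all), Cldn6 between the lineages newly so (1.70, edgeR adjusted p = 0.033). The numbers are only a shared label: the correlation of the first libraries' deviations was 0.333, with 2 pairs. Scaled to library totals, the median of all genes moved from 0.05 to 0.36 in ectoderm-like cells, where 1372 genes were then higher and 586 lower instead of 878 and 829, and from -0.06 to 0.15 in XEN-like cells (1336 and 702 instead of 1103 and 939). Between the lineages the split was 496 and 518 instead of 624 and 511. Vim then passed in ectoderm-like cells (1.28, adjusted p = 0.016, edgeR quasi-likelihood test). Without the low-count filter 16422 genes were tested and 2545, 2709 and 1667 called, against 1707, 2042 and 1135.

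A minimum of 100 UMIs leaves fewer members to count past 2-fold: 3 at 96 h, 1 at 48 h, 0 at 24 h, 0 between the 48 h gates, 1 between the 72 h CD24 gates, 2 for PDGFRA+ cells, 4 in the passage 5 culture of ectoderm-like cells and 2 in that of XEN-like cells. With TMM-scaled totals 5 members passed at 96 h instead of 6, and 3 at 48 h instead of 5. Chosen after seeing the data, the second sorted library alone gave 3 for the XEN-like culture. In wells over 4000 UMIs, Cdh1 was 0.350 per 10000 at 48 h and 0.0934 at 96 h, Cdh2 at the XEN end 0.197 at 96 h, and Cldn6 at the ectoderm end 0 at 72 h. Cut at the median score instead of into terciles, Cdh2 at the XEN end was 1.87 at 72 h and 1.03 at 96 h. In wells of 2000 to 20000 UMIs, also chosen after seeing the data, Vim was 5.65 at 96 h. With 5 and 15 cells, Cldn6 in the highest Cd24a cells was 1.65 RPKM. Low counts limit Snai1, Snai2, Cldn7 and Twist1 most.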
